A study of Mus musculus with 6 samples.

Results

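The genes described here encode the proteasome: its subunits, its activators and inhibitor, and the chaperones that assemble it. Members were taken by name, as protein-coding genes of the deposited count table whose symbol starts with Psma to Psmg followed by a digit. That rule matched 50 of 54532 genes, or of 22046 protein-coding genes. By role, 31 of them are constitutive subunits of the 26S particle, 5 are the interferon-inducible genes Psmb8, Psmb9, Psmb10, Psme1 and Psme2, 7 are assembly chaperones, 4 are other activators or inhibitors and 2 are tissue-restricted core subunits. The last match, Psmc3ip, shares the name only and encodes a partner of the meiotic recombination machinery, so 49 matches belong to the proteasome.

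The RNA came from TM3, a mouse cell line established from Leydig cells, the androgen-making cells of the testis, and was sequenced in 3 control libraries and 3 libraries of cells that overexpress A20. The controls are labelled as the overexpression control with genotype WT, and the other group as A20 overexpression. A20, encoded by Tnfaip3, edits ubiquitin chains and dampens NF-kB signalling. How A20 was delivered, its species, the number of clones and whether the libraries of a group came from separate cultures are not stated in the sources used here, so the p-values measure the spread between these libraries, which may be technical.

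The 26S proteasome degrades proteins tagged with ubiquitin. Its barrel-shaped 20S core is made of outer alpha rings, which gate the entrance, and inner beta rings, which hold the proteolytic sites, and the 19S cap on the barrel's ends has a base of ATPases that unfold the substrate and a lid that receives and deubiquitinates it. Interferon signalling induces replacement catalytic subunits, which form the immunoproteasome, and the PA28 activator, both known for shaping the peptides shown on MHC class I, while the transcription factor Nrf1, the product of Nfe2l1, raises the constitutive genes together when proteasome activity is short.

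Levels of 1 gene across libraries are given as TMM-normalised CPM (normalised CPM). Levels of different genes are set side by side as the deposited FPKM, which is per gene length, except where counts or normalised CPM are named. Total counts ran from 13841287 to 16917979 per library. The level of Tnfaip3 was 27.9, 12.7 and 15.3 normalised CPM across control replicates 1 to 3, against 41.2, 34.7 and 43.7 across A20 replicates 1 to 3. All 3 A20 libraries lay above all 3 controls. The log2 fold change, A20 over control, was 1.08 ± 0.30 (SE) with all 6 libraries (adjusted p = 0.331, edgeR's quasi-likelihood test with Benjamini-Hochberg adjustment) and 1.51 ± 0.19 without control replicate 1 (adjusted p = 2.56e-04). That library stood apart: 7 Leydig markers summed to 1836 normalised CPM in it and to 4.24 to 8.09 in each of the other 5, where 3 of the 7 had no count at all, so the labelled cell type is borne out by its markers in control replicate 1 alone. Macrophage and leukocyte markers went the other way, at 19.7 against 101 to 170 normalised CPM, with Ptprc and Adgre1 at 0 in all 6 libraries. Cd74 (15.7 against 77.4 to 129) and Cd68 (3.34 against 19.4 to 39.9) held most of that sum. Lyz2 was also lower in control replicate 1, while Csf1r, at 0.469, lay within the range of the other 5. The sums of the endothelial, Sertoli and peritubular lists were higher in control replicate 1 mainly through 1 gene each, while another member was lower there. Endothelial markers summed to 33.0 against 3.05 to 5.00, with Cdh5 at 31.6 and Egfl7 at 0.939 against 3.05 to 4.60. Sertoli markers summed to 272 against 132 to 184, with Clu at 199 but Wt1 at 69.8 against 121 to 152, and Sox9 at 0 in all 6. Peritubular markers summed to 76.3 against 34.0 to 54.5, with Acta2 at 69.9 but Des at 5.93 against 14.7 to 20.6. Germ cell markers summed to between 6.47 and 12.2 in every library. What part these differences have in the results was not tested, so fold changes are given with all 6 libraries and with the 5 that remain without control replicate 1. In bulk RNA, fewer cells of a type and less RNA per cell cannot be told apart.

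The constitutive proteasome was expressed in every library, and 2 of the 3 inducible catalytic subunits, Psmb8 and Psmb9, had means of 0.368 and 0.927 FPKM. Those means rest in part on control replicate 1, and over the other 5 libraries they were 0.0958 and 0.626. Mean FPKM over the 6 libraries ran from 8.75 ± 3.84 (SD, n = 6) for Psmd6 to 126 ± 6.49 for Psmd2 among the 31 constitutive 26S subunits, with a median of 42.9. Psmd2 and Psmd6 are both cap subunits, Psmd2 being the large scaffold of the base. Among the alpha subunits Psma6 was highest, at 74.1 ± 15.6 FPKM, and Psma3 lowest, at 21.4 ± 4.03, and among the constitutive beta subunits Psmb4 was highest, at 89.1 ± 9.67, and Psmb7, the trypsin-like site, lowest, at 28.9 ± 6.83. The ATPases spanned 21.2 ± 2.06 FPKM for Psmc2 to 59.6 ± 10.7 for Psmc1. Ranks by FPKM depend on the deposited gene lengths. Psmb7 has a length of 3421 bases but 1086 distinct 75-base stretches in its protein-coding transcripts, against 899 and 897 for Psmb5. For Psmc2 the values are 5031 and 1711. In normalised CPM, without length, Psmb5 lay below Psmb7 in every library. Assembly chaperones were lower on the whole, from 2.64 ± 0.595 FPKM for Psmg3 to 40.2 ± 5.90 for Psmg4, with a median of 12.5. Of the 50 matches, 47 passed the count filter in both fits. The exceptions were Psmb8, the thymus-restricted Psmb11, which had 5 counts in A20 replicate 3 and none elsewhere, and the testis-restricted Psma8, which had 27 counts in control replicate 1 and none in the other 5, where a count of 0 allows up to 0.178 to 0.223 normalised CPM (3 counts, counting error only).

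**Figure D1:**
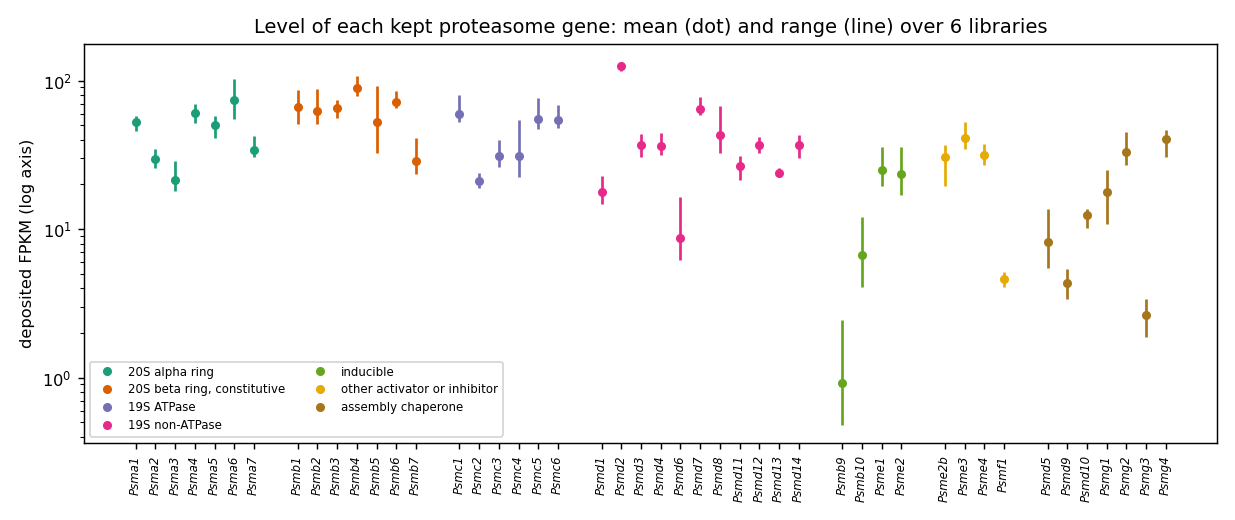
Mean deposited FPKM (dot, log axis) and its range over the 6 libraries (line) for each proteasome gene that passed the count filter, coloured by role. Psmd2 was the highest, at a mean of 126 FPKM, and the inducible Psmb9 the lowest, at 0.927.

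Across the family, hardly any gene differed between the groups past the test. The sign of the median log2 fold change depended on 1 control library, while many single genes, such as Psma3, Psmd3 and Psmf1, kept theirs. With all 6 libraries none of the 47 kept matches passed an adjusted p of 0.05 in edgeR's quasi-likelihood test, and 2 (Psme2 and Psma3) had an unadjusted p under 0.05, against 10.0% of the 13350 genes tested. DESeq2 and limma-voom also called none. Of all genes tested, 0.00749% were called higher and the same share, 0.00749%, lower. Without control replicate 1 the single call was Psme2, lower, beside 1.92% of 13658 genes called higher and 2.68% called lower. An unadjusted p under 0.05 was then found for 5 matches, of which 4 (Psmc4, Psmg1, Psme1 and Psme2b) were higher and Psme2 lower, against 21.6% of all genes. The log2 fold change was below 0 for 34 of the 47 with all 6 libraries, with a median of -0.09 (all genes: 54.0% below 0, median -0.03), and above 0 for 27 of the 47 without control replicate 1, with a median of 0.06 (all genes: 49.7% above 0, median 0.00).

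**Figure D2:**
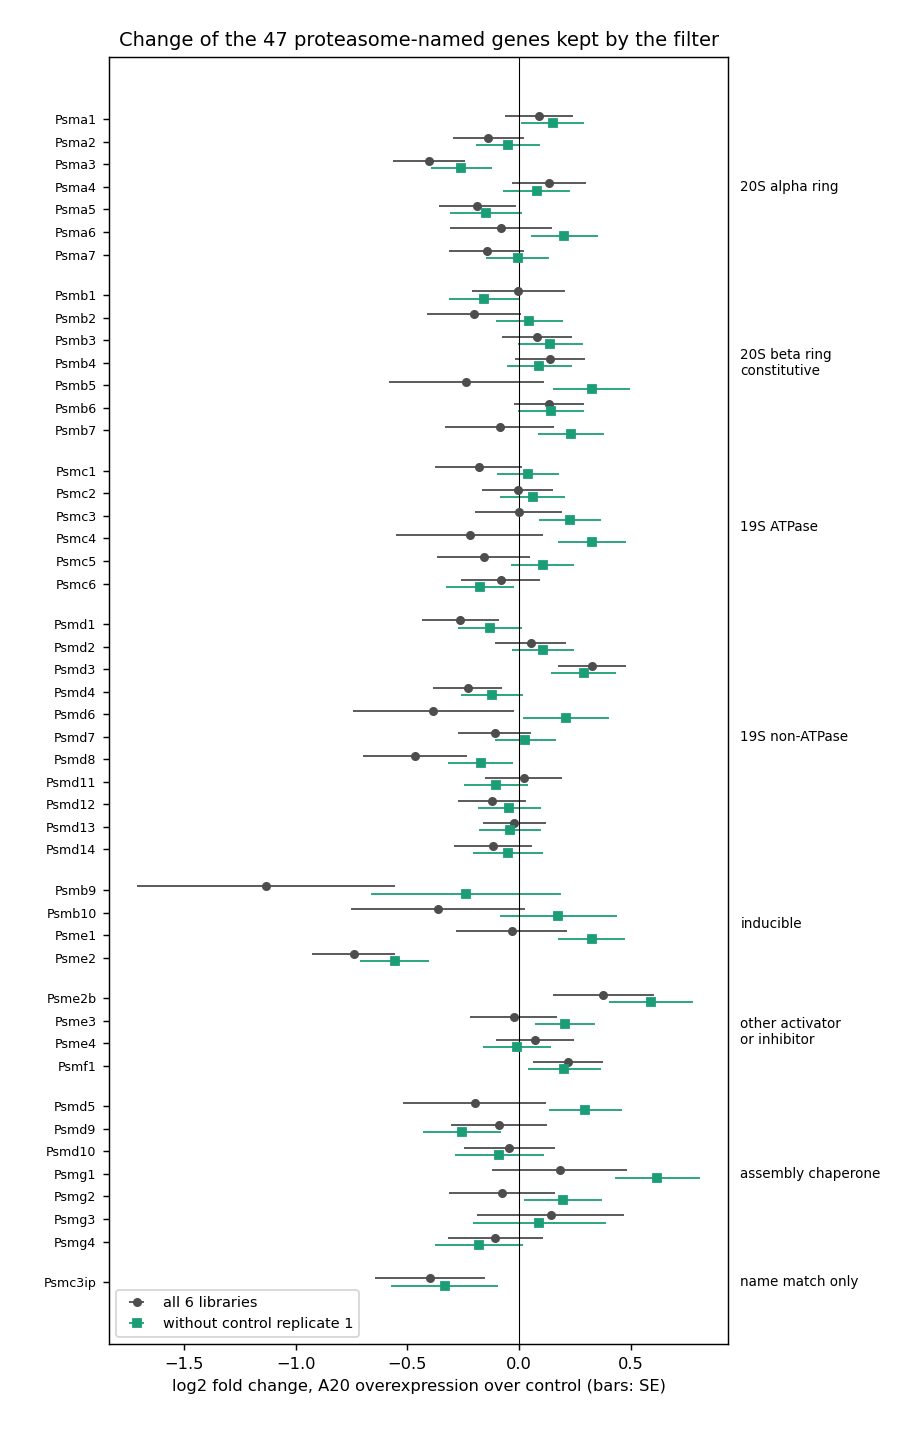
Log2 fold change, A20 overexpression over control (horizontal axis; bars: approximate SE), for the 47 kept matches, grouped by role, with all 6 libraries (circles) and without control replicate 1 (squares). Most bars cross or lie near 0, the squares lie to the right of the circles for many 20S, 19S and inducible genes, and Psme2 lies to the left and Psme2b to the right of 0 in both fits.

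The gene whose change passed the test, Psme2, has a near-identical relative, and their sequences are shown because reads of one can be assigned to the other. Psme2 encodes the beta subunit of PA28, the ring that opens the core's gate without ATP, and Psme1 its alpha subunit. Both lie on chromosome 14 of GRCm38, Psme1 at chr14:55578123-55581529 on the plus strand and Psme2 at chr14:55587441-55591113 on the minus strand, 5911 bases apart. Psme2b is a single-exon protein-coding gene at chr11:48945354-48946190, minus strand, which lies within an intron of Gm12185 on the same strand. Psme2b also overlaps the span of a further protein-coding gene on that strand, 9930111J21Rik1, by 41 bases. Its transcript Psme2b-201 (837 bases, 1 exon) aligned with Psme2-208 (962 bases, 11 exons) over 794 bases, of which 789 were identical (99.4%) and 5 differed, with one run of 341 identical bases. Of all 75-base stretches of the Psme2 transcripts, 459 of 979 (46.9%) occurred in Psme2b, and these were 459 of the 763 stretches of Psme2b (60.2%). The coding stretch that holds all 5 differences is 262 bases long. It spans 5 exons between positions 55587735 and 55589364 of chromosome 14 in Psme2 and positions 48945561 to 48945822 of chromosome 11 in Psme2b, and is printed from the GENCODE M21 transcripts, 5′ to 3′, with the differing bases in capitals:
Psme2-208: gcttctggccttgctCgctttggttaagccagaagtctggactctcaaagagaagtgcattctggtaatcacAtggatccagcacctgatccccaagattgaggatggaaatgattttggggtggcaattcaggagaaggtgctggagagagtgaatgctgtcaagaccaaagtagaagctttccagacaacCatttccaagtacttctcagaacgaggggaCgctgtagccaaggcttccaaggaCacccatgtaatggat
Psme2b-201: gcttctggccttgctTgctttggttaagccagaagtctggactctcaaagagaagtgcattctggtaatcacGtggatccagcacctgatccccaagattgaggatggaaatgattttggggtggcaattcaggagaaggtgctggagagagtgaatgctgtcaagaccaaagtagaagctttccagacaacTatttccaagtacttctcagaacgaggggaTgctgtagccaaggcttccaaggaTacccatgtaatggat
Counted from 1 at the 5′ end of the stretch, with the base of Psme2 first, the differences are C16T, A73G, C193T, C223T and C247T. How the authors' counting treated reads that match both genes is not given in the sources used here, so the split of counts between them is uncertain.

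Counts assigned to Psme2 were lower in the A20 libraries, counts assigned to Psme2b were not, and their sum showed no difference past the test. The level of Psme2 was 63.8, 48.1 and 43.6 normalised CPM across control replicates 1 to 3, against 33.0, 30.3 and 30.4 across A20 replicates 1 to 3. Every A20 library lay below every control, and the A20 libraries lay close together. The mean was 51.8 ± 10.6 (SD, n = 3) in control and 31.2 ± 1.5 (n = 3) in A20 cells. The log2 fold change was -0.74 ± 0.19 (SE) with all 6 libraries (adjusted p = 0.274, edgeR's quasi-likelihood test) and -0.56 ± 0.15 without control replicate 1 (adjusted p = 0.0481), a 1.47-fold lower level. That call sat at the threshold. In the 5 libraries it held with median-of-ratios factors (adjusted p = 0.0448), DESeq2 (0.0273), limma-voom (0.0480) and without control replicate 3 (0.0143), and it was lost without the count filter (0.0525), with library size alone (0.0736) and without control replicate 2 (0.137), A20 replicate 1 (0.128), A20 replicate 2 (0.135) or A20 replicate 3 (0.217).

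Psme2b went the other way, at 28.2, 22.4 and 16.5 normalised CPM in the controls and 28.8, 27.8 and 31.2 in the A20 libraries. Control replicate 1 lay among the A20 libraries, while control replicates 2 and 3 lay below them. Its log2 fold change was 0.38 ± 0.23 with all 6 libraries (adjusted p = 0.607, edgeR's quasi-likelihood test) and 0.59 ± 0.19 without control replicate 1 (adjusted p = 0.0795). The intron-bearing host Gm12185 had 22, 16 and 9 counts in the controls and 24, 23 and 29 in the A20 libraries. Psme2b held 30.7%, 31.8% and 27.4% of the 2 genes' summed counts in the controls and 46.6%, 47.8% and 50.6% in the A20 libraries, without overlap between the groups. The sum itself was 92.0, 70.5 and 60.1 normalised CPM in the controls and 61.8, 58.1 and 61.6 in the A20 libraries. The groups overlapped in the sum, and its log2 fold change was -0.30 ± 0.19 (adjusted p = 0.613, edgeR's quasi-likelihood test) with all 6 libraries and -0.11 ± 0.15 (adjusted p = 0.706) without control replicate 1. Whether the 2 genes moved apart or the same reads were split differently between them was not tested. The sum was added as an alternative after the data were seen.

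The partner subunit did not follow Psme2. Psme1 stood at 79.8, 43.8 and 43.8 normalised CPM in the controls and at 52.9, 52.3 and 59.7 in the A20 libraries. Control replicate 1 was the highest of all 6 and the other controls were the lowest. Psme1 had a log2 fold change of -0.03 ± 0.25 with all 6 libraries (adjusted p = 0.974, edgeR's quasi-likelihood test) and 0.32 ± 0.15 without control replicate 1 (adjusted p = 0.219). The ratio of Psme2 to Psme1 counts was 0.799, 1.10 and 0.995 in the controls and 0.623, 0.580 and 0.509 in the A20 libraries, again without overlap. With Psme2b added to Psme2, the ratio was 1.15, 1.61 and 1.37 in the controls and 1.17, 1.11 and 1.03 in the A20 libraries, and the groups overlapped.

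**Figure D3:**
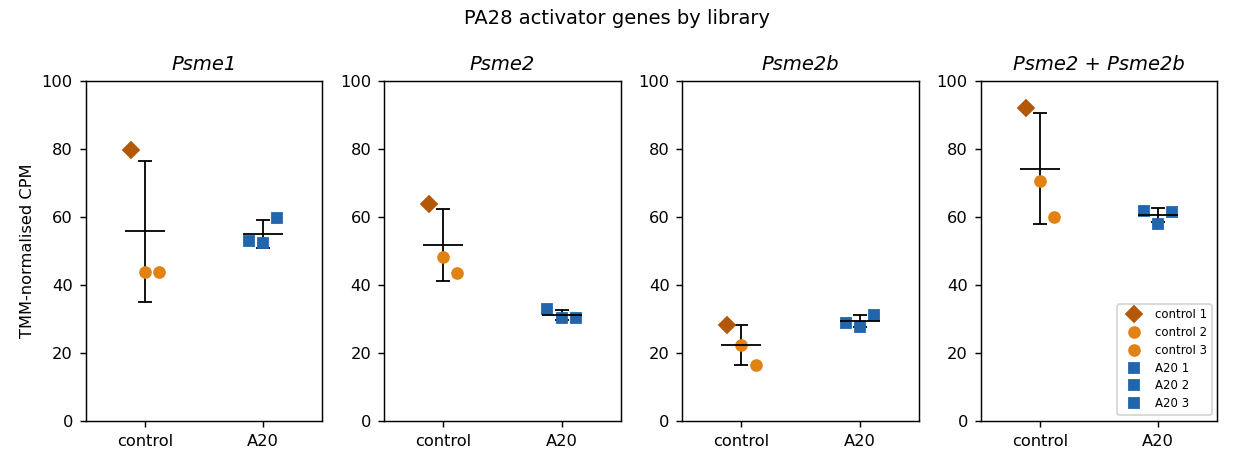
Normalised CPM of Psme1, Psme2, Psme2b and the sum of Psme2 and Psme2b in each library (diamond: control replicate 1; circles: control replicates 2 and 3; squares: A20 replicates 1 to 3), with mean and SD of each group of 3. Psme2 is lower in all 3 A20 libraries, Psme2b lies at 27.8 to 31.2 there, and the sum, at 58.1 to 61.8, overlaps the lowest control at 60.1.

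The inducible catalytic subunits were far below the constitutive subunits whose place they take in the core. Psmb8 (beta5i) replaces Psmb5, Psmb9 (beta1i) replaces Psmb6 and Psmb10 (beta2i) replaces Psmb7. Psmb8 and Psmb9 lie close together on chromosome 17, within the MHC, at chr17:34197721-34201454 and chr17:34181988-34187764. Tap1 (chr17:34187553-34197225) lies between them and overlaps Psmb9 by 212 bases on the opposite strand. Psmb8 had 81, 5 and 4 counts in the 3 controls, and 1, 3 and 6 in the A20 libraries, so it failed the count filter. The 1 count of A20 replicate 1 has an exact 95% Poisson interval of 0.0253 to 5.57 counts, and the 6 of A20 replicate 3 one of 2.20 to 13.1, for counting error only. The FPKM of Psmb8 was 1.87% of that of Psmb5 in control replicate 1 and 0.0492% to 0.415% in the other 5 libraries. Psmb9 reached 3.52% of Psmb6 in control replicate 1 and 0.566% to 1.06% in the others. Psmb10 was the exception, at 29.2%, 17.4% and 25.7% of Psmb7 in the controls and 22.5%, 16.9% and 23.9% in the A20 libraries. That share depends on the deposited lengths of 1705 bases for Psmb10 and 3421 for Psmb7. Their protein-coding transcripts hold 1237 and 1086 distinct 75-base stretches. In counts, Psmb10 had 351, 93 and 149 in the controls, against 2415, 1073 and 1164 for Psmb7. In the A20 libraries Psmb10 had 162, 142 and 168 counts, against 1444, 1681 and 1413 for Psmb7. An antisense gene, Gm16156, covers the whole of Psmb10 and another, Gm20496, covers 57.3% of Psmb8, and without a stated strand setting reads of either strand cannot be told apart.

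For none of the 3 ratios could a difference between the groups be shown. On the log2 scale the A20 mean minus the control mean was -2.18 for Psmb8 over Psmb5, -1.0 for Psmb9 over Psmb6 and -0.17 for Psmb10 over Psmb7. Exact two-sided permutation tests gave p = 0.2, 0.2 and 0.5 (adjusted over the 3 ratios, 0.3, 0.3 and 0.5), and 0.1 is the smallest p that 3 against 3 allows. Without control replicate 1 the differences shrank to -1.32, -0.40 and -0.02. The values for Psmb8 over Psmb5 rest on few counts of Psmb8, 81, 5 and 4 in the controls and 1, 3 and 6 in the A20 libraries. The permutation test does not take their counting error into account. As single genes, Psmb9 stood at 8.92, 2.53 and 2.54 normalised CPM in the controls against 1.96, 1.78 and 2.72 in the A20 libraries, and Psmb10 at 20.6, 6.92 and 10.8 against 9.62, 9.34 and 11.2. In both, control replicate 1 was far above the rest and the other 5 overlapped. The log2 fold change of Psmb9 was -1.13 ± 0.58 (adjusted p = 0.546, edgeR's quasi-likelihood test) with all 6 libraries and -0.24 ± 0.42 (adjusted p = 0.799) without that control, and that of Psmb10 was -0.36 ± 0.39 (adjusted p = 0.789) and 0.18 ± 0.26 (adjusted p = 0.751).

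**Figure D4:**
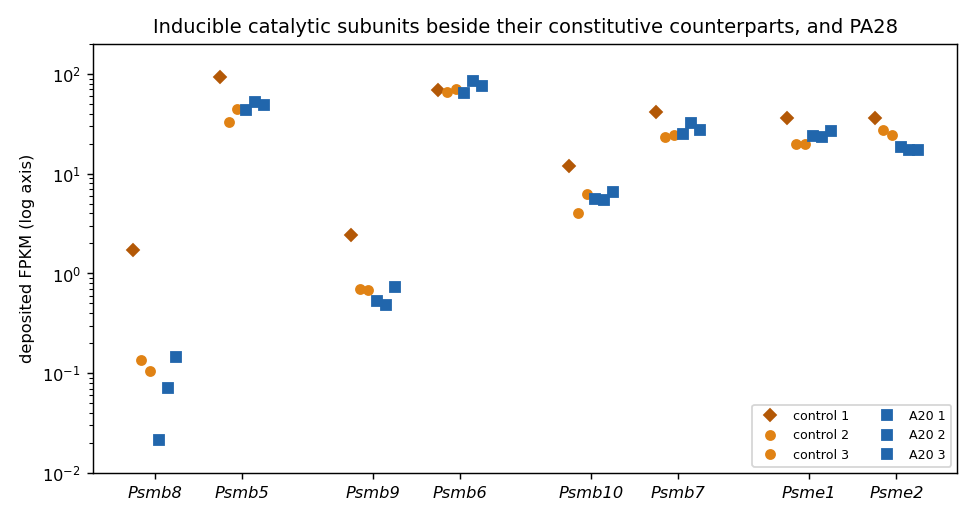
Deposited FPKM (log axis) of the inducible catalytic subunits beside their constitutive counterparts, and of the PA28 genes Psme1 and Psme2, in each library (diamond: control replicate 1; circles: other controls; squares: A20). Psmb8 lies between 0.0215 and 1.73 FPKM and Psmb5 between 32.8 and 92.6, and control replicate 1 is the highest library for all 5 inducible genes.

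The summed level of the constitutive 26S subunits showed no difference between the groups beyond the spread of the controls. Over the 31 genes it was 4489, 4100 and 3776 normalised CPM in the controls (4122 ± 357) and 3915, 4216 and 3938 in the A20 libraries (4023 ± 168), and the A20 libraries lay within the range of the controls. Without control replicate 1, A20 replicate 2 lay above both remaining controls and the other A20 libraries lay between them. No alpha subunit passed the test, with adjusted p from 0.477 to 0.927 with all 6 libraries and from 0.283 to 0.987 without control replicate 1. Psma3, an outer-ring subunit, came nearest. It stood at 112, 87.0 and 85.9 normalised CPM in the controls and 73.9, 72.6 and 70.6 in the A20 libraries. All A20 libraries lay below all controls, with a log2 fold change of -0.40 ± 0.16 (adjusted p = 0.477, edgeR's quasi-likelihood test) with all 6 and -0.26 ± 0.14 (adjusted p = 0.283) without control replicate 1. Of the 75-base stretches of Psma3, 20.9% also occurred in other genes, all of them in Gm13835. Psma5 (39.8%), Psmb5 (36.8%), Psmb3 (33.1%), Psmg3 (19.5%) and Psmd2 (14.4%) also shared over 10% of their stretches with other genes. Psma5, another alpha subunit, had a log2 fold change of -0.19 ± 0.17 with all 6 libraries and -0.15 ± 0.16 without control replicate 1, and Psma6 one of -0.08 ± 0.23 and 0.20 ± 0.15.

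Among the 7 constitutive beta subunits, Psmb5, the chymotrypsin-like site, was the one with the highest ratio of control replicate 1 to the other 5. It stood at 83.6, 29.5 and 40.3 normalised CPM in the controls and 39.7, 47.2 and 44.6 in the A20 libraries. Control replicate 1 was far above the rest, and 2 of the 3 A20 libraries lay above both other controls. Its sign turned, the log2 fold change going from -0.24 ± 0.35 with all 6 libraries (adjusted p = 0.856, edgeR's quasi-likelihood test) to 0.33 ± 0.17 without that control (adjusted p = 0.284). Psmb7 turned in the same way, from -0.09 ± 0.24 to 0.23 ± 0.15, and so did the non-catalytic Psmb2, from -0.20 ± 0.21 to 0.05 ± 0.15. Psmb6, the caspase-like site, was even across the libraries, at 122 to 160 normalised CPM, with 0.13 ± 0.16 and 0.14 ± 0.15. Psmb4, a structural beta subunit, had 0.14 ± 0.16 and 0.09 ± 0.15. Adjusted p for the 7 ran from 0.782 to 0.996 with all 6 libraries and from 0.284 to 0.895 without control replicate 1.

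All 6 ATPases had a log2 fold change below 0 with all 6 libraries and 5 of the 6 one above 0 without control replicate 1, none past the test in either fit (adjusted p from 0.787 and from 0.222 upward). Psmc4, named after its values were seen, stood at 118, 48.7 and 52.0 normalised CPM in the controls and 55.9, 65.5 and 68.3 in the A20 libraries, so that control replicate 1 lay above and the other controls below the A20 range. Its fold change on the log2 scale was -0.22 ± 0.33 with all 6 libraries and 0.33 ± 0.15 (adjusted p = 0.222, edgeR's quasi-likelihood test) without control replicate 1. Psmc1 went from -0.18 ± 0.19 to 0.04 ± 0.14 and Psmc5 from -0.16 ± 0.21 to 0.11 ± 0.14. Psmc2 was at -0.01 ± 0.16 and 0.06 ± 0.15. For Psmc4, Psmc1 and Psmc5, as for Psmb5, the sign thus turned with 1 library.

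The 11 non-ATPase cap subunits had adjusted p of at least 0.521 with all 6 libraries and at least 0.256 without control replicate 1. Psmd3, a lid subunit, was the 1 constitutive subunit whose A20 libraries all lay above the controls, at 154, 152 and 185 normalised CPM in the controls and 199.6, 219 and 201 in the A20 libraries. Its log2 fold change was 0.33 ± 0.15 (adjusted p = 0.521, edgeR's quasi-likelihood test) with all 6 libraries and 0.29 ± 0.15 (adjusted p = 0.256) without control replicate 1. Psmd8, also of the lid, had -0.47 ± 0.23 (adjusted p = 0.543), which shrank to -0.17 ± 0.15 without that control, in which it stood at 207 normalised CPM against 101 to 132 in the other 5. Psmd6 stood at 46.1, 19.6 and 17.5 normalised CPM in the controls and 19.96, 19.996 and 24.5 in the A20 libraries, and turned from -0.38 ± 0.36 to 0.21 ± 0.19. Psmd2, the most abundant, was even, at 0.05 ± 0.16 and 0.11 ± 0.14. Over all 47 kept matches the groups did not overlap for 2 genes that were higher (Psmd3 and Psmf1) and 3 that were lower (Psma3, Psme2 and the name match Psmc3ip), against 9.30% of all genes tested that were higher without overlap and 8.10% that were lower. Scaled by total count alone, Psmd4, a ubiquitin receptor of the cap, joined the lower ones.

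None of the other activators or the inhibitor passed the test in either fit. Psmf1 encodes PI31, a protein that inhibits the core in vitro. It stood at 26.7, 29.3 and 26.7 normalised CPM in the controls and 31.7, 33.2 and 31.9 in the A20 libraries, without overlap, and its log2 fold change was 0.22 ± 0.16 (adjusted p = 0.667, edgeR's quasi-likelihood test) and 0.20 ± 0.16 (adjusted p = 0.508) without control replicate 1. Psme3, the nuclear PA28 gamma, was at 156, 101 and 107 normalised CPM in the controls and 121, 119.6 and 121 in the A20 libraries. Its A20 values lay between control replicate 1 and the other controls, and the log2 fold change was -0.02 ± 0.19, or 0.20 ± 0.14 without that control.

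No assembly chaperone passed the test in either edgeR fit. Psmg1, which pairs with Psmg2 in building the alpha ring, came nearest, at 33.6, 14.5 and 18.6 normalised CPM in the controls and 26.8, 25.2 and 24.5 in the A20 libraries. Control replicate 1 was the highest and the other controls were the lowest. Its log2 fold change was 0.18 ± 0.30 (adjusted p = 0.874, edgeR's quasi-likelihood test) with all 6 libraries and 0.62 ± 0.19 (adjusted p = 0.0701) without control replicate 1, where DESeq2 gave an adjusted p of 0.0494. Psmd5, a chaperone of the ATPase ring, turned from -0.20 ± 0.32 to 0.30 ± 0.16 without that control. Psmg3 and Psmg4, which act together on the alpha ring, were at 0.14 ± 0.33 and -0.11 ± 0.21 with all 6 libraries and at 0.09 ± 0.30 and -0.18 ± 0.20 without control replicate 1.

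For many genes of the family, control replicate 1 was the highest of the 6 libraries. Of the 47 kept matches, 26 were higher in control replicate 1 than in every other library and 6 were lower than in every other, against 30.8% and 31.5% of all genes tested. Scaled by total count alone the numbers were 34 and 2, against 40.7% and 21.7%. The median log2 ratio of control replicate 1 to the mean of the other 5 was 0.34 over the 47 matches and -0.04 over all genes tested. By role it was 0.94 for the 4 inducible genes kept, 0.49 for the ATPases, 0.26 for the alpha ring, 0.23 for the non-ATPase cap subunits, 0.07 for the constitutive beta ring, -0.02 for the other activators and the inhibitor and -0.10 for the chaperones. Within a ring the members went different ways. The ratio was 2.08-fold for Psmb5 and 0.736-fold for Psmb1, another beta subunit, and 2.27-fold for Psmd6 and 0.777-fold for the lid subunit Psmd11. Psmb1 and Psmd11 were named after their values were seen. Since the Leydig markers and the proteasome genes differ in the same single library, their parts in the spread cannot be told apart.

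**Figure D5:**
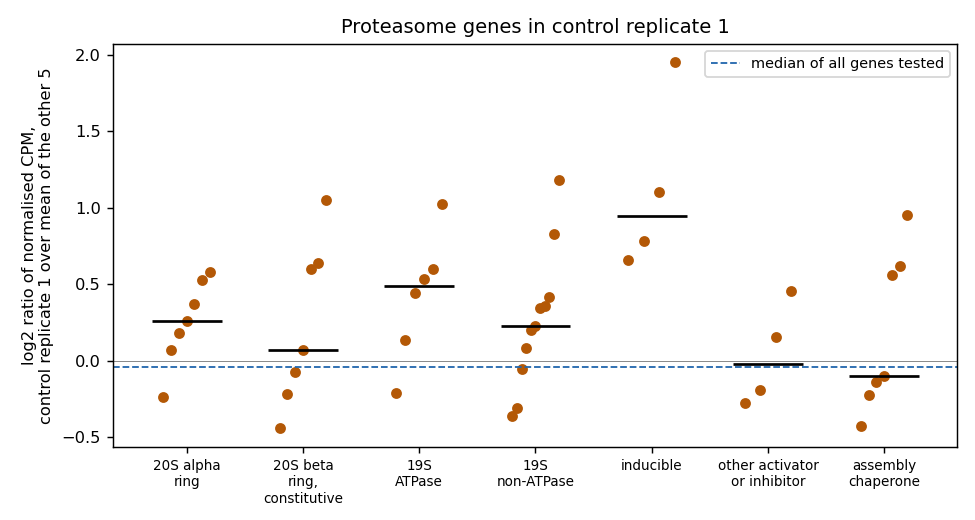
Log2 ratio of normalised CPM in control replicate 1 to the mean of the other 5 libraries for each kept proteasome gene (dots), by role, with the median of each role (black bar) and the median of all genes tested (dashed line, -0.04). The inducible genes have the highest median, 0.94, and single genes of the beta ring, the ATPases and the cap reach ratios above 1 on the log2 scale.

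Promoter sequence is shown for 3 genes to place the motifs linked to proteasome regulation beside these levels. Windows of 250 bases before the start were taken from RefSeq (GRCm38.p6), where 42 of the 50 matches had an entry, and were searched on both strands. Each match had 1 window, the nearest to its deposited start. Shares over all windows are of 32851, not reduced to 1 per gene, so the 2 sets are not alike. The GC box (GGGCGG) was found in 56% of the 25 constitutive 26S windows and in 32.7% of all windows, the CCAAT box (CCAAT) in 40% and 33.8%, and the antioxidant response element (TGANNNNGC), the kind of site that Nrf1 binds, in 32% and 35.2%. The interferon-stimulated response element (GAAANNGAAA) was found in 8% and 2.98%, the GAS element of STAT factors (TTCNNNGAA) in 0 of the 25 and 7.02% of all, and the NF-kB site in 16% and 7.25%. Among the windows of the 5 inducible genes, that of Psmb8 alone held a GAS element, and none held the interferon-stimulated response element or the NF-kB site. The windows of Psmb8, Psmb9 and Psme1 lay wholly within the deposited span of their own gene. Those of Psmb8 and Psmb9 lay wholly within annotated exons, the GAS match with them, and 139 bases of that of Psme1 did. For these genes the bases before the deposited start were not searched, so the windows cannot show that motifs are absent there. Motif letters that overlap, such as those of the response element and the GC box, were counted for each. Matches in the windows of Psme2, Psmb5 and Psmb6 are in capitals, on the strand of the gene:
Psme2, chr14:55591102-55591351, minus strand: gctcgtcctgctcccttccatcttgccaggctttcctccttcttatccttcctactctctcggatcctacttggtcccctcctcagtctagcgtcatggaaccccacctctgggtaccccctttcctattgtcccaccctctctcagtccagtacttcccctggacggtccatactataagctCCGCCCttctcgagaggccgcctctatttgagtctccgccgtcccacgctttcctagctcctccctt
Psmb5, chr14:54617996-54618245, minus strand: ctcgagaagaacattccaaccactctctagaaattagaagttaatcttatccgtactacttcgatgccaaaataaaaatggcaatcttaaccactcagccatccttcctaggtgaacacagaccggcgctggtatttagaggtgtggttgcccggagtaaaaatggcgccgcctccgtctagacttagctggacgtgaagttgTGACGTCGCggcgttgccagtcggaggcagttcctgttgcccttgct
Psmb6, chr11:70525107-70525356, plus strand: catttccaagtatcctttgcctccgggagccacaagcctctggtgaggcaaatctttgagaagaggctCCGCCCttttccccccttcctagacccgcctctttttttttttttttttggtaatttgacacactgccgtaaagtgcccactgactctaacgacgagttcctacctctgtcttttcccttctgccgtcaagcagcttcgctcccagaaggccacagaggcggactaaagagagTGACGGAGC
Psme2 held a GC box read on the other strand, Psmb5 an antioxidant response element, and Psmb6 both of these motifs. A match is a string of letters in this window and not a measured binding site, and no binding was measured here.

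No proteasome-associated factor and no gene of the Nrf1 axis passed the test. The 22 proteasome-associated factors lie outside the name rule and include ubiquitin genes, shuttle and deubiquitinating proteins, Sem1, Adrm1 and Pomp. All were kept and none was called in either fit. Without control replicate 1, 8 had an unadjusted p under 0.05 in edgeR's test, 3 higher and 5 lower, beside 21.6% of all genes tested. In normalised CPM the groups did not overlap for 2 that were higher (Ubqln1 and Nploc4) and 3 that were lower (Uchl5, Sem1 and Pomp). Over all genes tested, 9.30% were higher without overlap and 8.10% lower. The most abundant of the 22 factors, the ubiquitin gene Ubb, stood at 319, 649 and 436 normalised CPM in the controls and 422, 406 and 419 in the A20 libraries. Its log2 fold changes were -0.18 ± 0.25 with all 6 libraries and -0.39 ± 0.16 without control replicate 1 (adjusted p = 0.850 and 0.179, edgeR's quasi-likelihood test). Of 12 genes of the Nrf1 axis none was called in either fit. Nfe2l1 itself was lowest in control replicate 1, at 658 normalised CPM, against 1192 and 1213 in the other controls and 898, 1052 and 963 in the A20 libraries. The fitted log2 fold change was -0.08 ± 0.25 with all 6 libraries and -0.31 ± 0.14 (adjusted p = 0.219) without that control.

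Of 17 genes of the interferon and class I presentation axis, 15 were kept, none was called with all 6 libraries and 1 was called, lower, without control replicate 1, where 2.68% of all genes were called lower. That gene was B2m, whose product completes MHC class I molecules at the cell surface. It stood at 376, 366 and 252 normalised CPM in the controls and 207, 209 and 166 in the A20 libraries, and all A20 libraries lay below all controls. Its log2 fold change was -0.78 ± 0.20 with all 6 libraries (adjusted p = 0.310, edgeR's quasi-likelihood test) and -0.67 ± 0.17 without control replicate 1 (adjusted p = 0.0298), a call lost without control replicate 2 (0.178), A20 replicate 1 (0.0948), A20 replicate 2 (0.0999) or A20 replicate 3 (0.193). The log2 fold change was below 0 for 11 of the 15 in both fits, with a median of -0.07 with all 6 libraries (all genes: 54.0% below 0, median -0.03) and -0.17 without control replicate 1 (all genes: 6875 of 13658 below 0, median 0.00). Psme2 and B2m were thus the 2 genes with a call among the inducible genes and this list, both lower in the A20 libraries. The call for Psme2 rests on counts whose split with Psme2b is uncertain, and the sum of Psme2 and Psme2b was not called in either fit.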

How the data were processed

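RNA was extracted on columns and made into SMARTER mRNA libraries, per the labels' protocols. The authors deposited 1 table of raw counts per gene and, beside the counts, FPKM values, which the deposited table gives per gene length; the genome build was GRCm38 (mm10) per the submitters' processing notes. Which aligner and counter were used, and whether strand was counted, is not given in the sources used here.

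Counts of all genes were fitted with edgeR 4.0.16 (R 4.3.3): TMM factors, the default expression filter by group with a minimum count of 10, robust quasi-likelihood F test, Benjamini-Hochberg adjustment over all genes kept and a threshold of 0.05. Log2 fold changes are A20 over control, and the SE is approximate, the change divided by the square root of F. Normalised CPM divides counts by the TMM-scaled library size. FPKM served for levels between genes and for the ratios of inducible to constitutive subunits, tested by exact permutation. Ratios, shares and sums of the PA28 genes, and the summed levels of subunits and markers, used normalised CPM, without length. Depth was 13841287 to 16917979 counts, so 3 counts equal 0.176 to 0.223 normalised CPM. Alternatives were median-of-ratios factors, no filter, DESeq2 1.42.0, limma-voom (limma 3.58.1), a replicate block and leaving out each library; library size alone and the sum of Psme2 and Psme2b were added after the data were seen. The fits were tested on simulated counts.

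The members, the gene lists and the fit without control replicate 1 were chosen with earlier results of these data known. Named genes were Tnfaip3; the inducible genes and their counterparts; every called member; per role, the highest, the lowest and the 2 with the smallest p; and, per list, called genes or the most abundant. Others are said to be named after their values were seen. Transcripts came from GENCODE M21, in which 48 of the 50 matches had the same coordinates, and were compared in Python 3.11.15. Of the matches, 35 shared no 75-base stretch with another gene, 8 shared over 10% of their stretches and 1 over 50%, and 19 overlapped a gene on the opposite strand.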

Additional observations from a re-analysis of the deposited data

How the results depend on the processing

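Calls in this family rest on which libraries enter. With all 6 libraries, 2 genes in the table were called by edgeR, 23 without the count filter, 183 by DESeq2, 0 by limma-voom, 0 with library size alone, and 0 to 628 with 1 library left out. None of the proteasome genes was called in those settings except 1 without control replicate 1 (range 0 to 1). Without control replicate 1, 628 genes were called, 1173 without the filter, and 142 to 2423 with a further library left out. Proteasome genes called were then 1, or 2 without the filter (Psme2b and Psmg1), 2 by DESeq2 (Psme2 and Psmg1), 0 with library size alone, and 0 to 4 with a further library left out, the 4 being Psme2, Psmb5, Psmd3 and Psmg1 without control replicate 3. Leaving out a second control leaves a single control, assumed to vary like the A20 libraries.

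Replicate numbers did not pair the libraries: the correlations of same-numbered deviations were 0.03, 0.11 and -0.04, and not every library correlated best with its own number. With the replicate block, 2 genes and 0 proteasome genes were called with all 6 libraries, and 797 genes and 0 proteasome genes without control replicate 1, where Psme2 had an adjusted p of 0.0847. The block turned Psme1 to 0.028 and Psme3 to 0.0052 on the log2 scale, limma-voom turned them to 0.019 and 0.0064, and Psmc2 was 0.012 without the filter.

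With all 6 libraries, leaving out 1 at a time changed the sign of the median log2 fold change of the kept genes (-0.18 to 0.061) and of Psmb10 (-0.65 to 0.18), Psme1 (-0.18 to 0.32), Psmb5 (-0.51 to 0.33), Psmb7 (-0.23 to 0.23), Psma6 (-0.26 to 0.20), Psmb2 (-0.36 to 0.046), Psmc1 (-0.28 to 0.038), Psmc2 (-0.092 to 0.061), Psmc5 (-0.28 to 0.11), Psmd6 (-0.63 to 0.21), Psme3 (-0.14 to 0.20), Psmg4 (-0.25 to 0.023), Psmg3 (-0.026 to 0.40), Psmd5 (-0.44 to 0.30), Psmg1 (-0.044 to 0.62), Ubb (-0.39 to 0.13) and Nfe2l1 (-0.31 to 0.065). Without control replicate 1, the same step did so for Psmb10 (-0.11 to 0.54), Psmb4 (-0.0092 to 0.16), Psmb2 (-0.098 to 0.21), Psmc1 (-0.024 to 0.077), Psmc2 (-0.034 to 0.16) and Psmg3 (-0.27 to 0.57). Of the values for the 30 named genes, 329 with all 6 libraries and 303 without control replicate 1 kept their direction and side of the threshold. At these depths Psmb8, Psma8 and Psmb11 were too low to pass the count filter and were not tested as single genes in the main fits.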
